A study of Mus musculus with 12 samples.

Results

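The core genes of the Polycomb repressive complexes were followed in B16F10 cells, a mouse melanoma line, after treatment with an epigenetic drug, an antioxidant or both. The set held 10 genes chosen by symbol, 7 of Polycomb repressive complex 2 (PRC2) and 3 of Polycomb repressive complex 1 (PRC1), of 24421 gene symbols with a count. All 10 passed the filter on low counts of 1 CPM (counts scaled to the size of the library) reached in 3 of 12 libraries or more, as did 11638 genes in all. RNA from 3 independent repeats of each of 4 conditions was sequenced. Control cells received DMSO (0.025% in the labels, 0.00025% in the study's methods). DAC cells received 25 nM 5-aza-2′-deoxycytidine, a nucleoside analogue that blocks DNA methylation, for 72 h. SFN cells received sulforaphane, an isothiocyanate from cruciferous vegetables, for 48 h, at 5 µM in the study's methods and 5 nM in the labels of the single treatment. DAC+SFN cells, the combination treatment, received 25 nM DAC for 72 h with 5 µM SFN in the last 48 h. All libraries came from this 1 cell line, so the values describe a single tumour line in culture.

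Polycomb proteins keep genes silent through marks on histones. PRC2 places methyl groups on lysine 27 of histone H3 through its catalytic subunit, EZH2 or the paralogue EZH1, and works only together with the subunits EED and SUZ12. PRC1 carries the ubiquitin ligases RING1 and RNF2, which mark histone H2A, held by a PCGF protein such as BMI1. In melanoma, EZH2 and its histone mark have been linked to spread of the tumour, and EZH2 has been described as binding DNA methyltransferases, the enzymes that DAC depletes. RNA counts measure none of these protein activities. The study's mass spectrometry of histones found no significant change in their marks with DAC+SFN. Its EZH2 inhibitor control had less of the trimethyl mark on lysine 27.

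The libraries held between 15880957 and 27291436 counts on genes, and the members had between 233 and 6618 counts in a library. Samples with the same replicate number deviated together from their condition means, with a correlation across genes of 0.27 to 0.73 over 18 pairs, so the replicate number was a block in the model. Library numbers in the labels run in the order of the replicate numbers, so repeat culture and library batch cannot be told apart. The 7 melanocyte markers searched for all passed the filter, with Tyrp1 at 11959 ± 1437 CPM in control (mean ± SD, n = 3). Of 9 markers of leukocytes, endothelium and epithelium, none passed, and the highest count was 11, for Pecam1. CPM values were scaled by the TMM method, and a difference was called at a Benjamini-Hochberg adjusted p under 0.05 in edgeR's quasi-likelihood test over all 11638 genes.

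Compared to control, the combination treatment was accompanied by higher Ezh1 and lower Ezh2, Suz12 and Jarid2 RNA. The changes of these 4 genes lay between 18.6 and 28.6% in size. No member was called in DAC single treatment, and SFN single treatment was accompanied by lower Suz12 and Jarid2. The other 6 members, Eed, Rbbp4, Rbbp7, Bmi1, Rnf2 and Ring1, were called in no comparison of conditions. In every comparison, 0 members had a fold change above 2, and with that threshold added 1.28% of all genes passed in SFN and 2.66% in DAC+SFN compared to control.

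**Figure D1:**
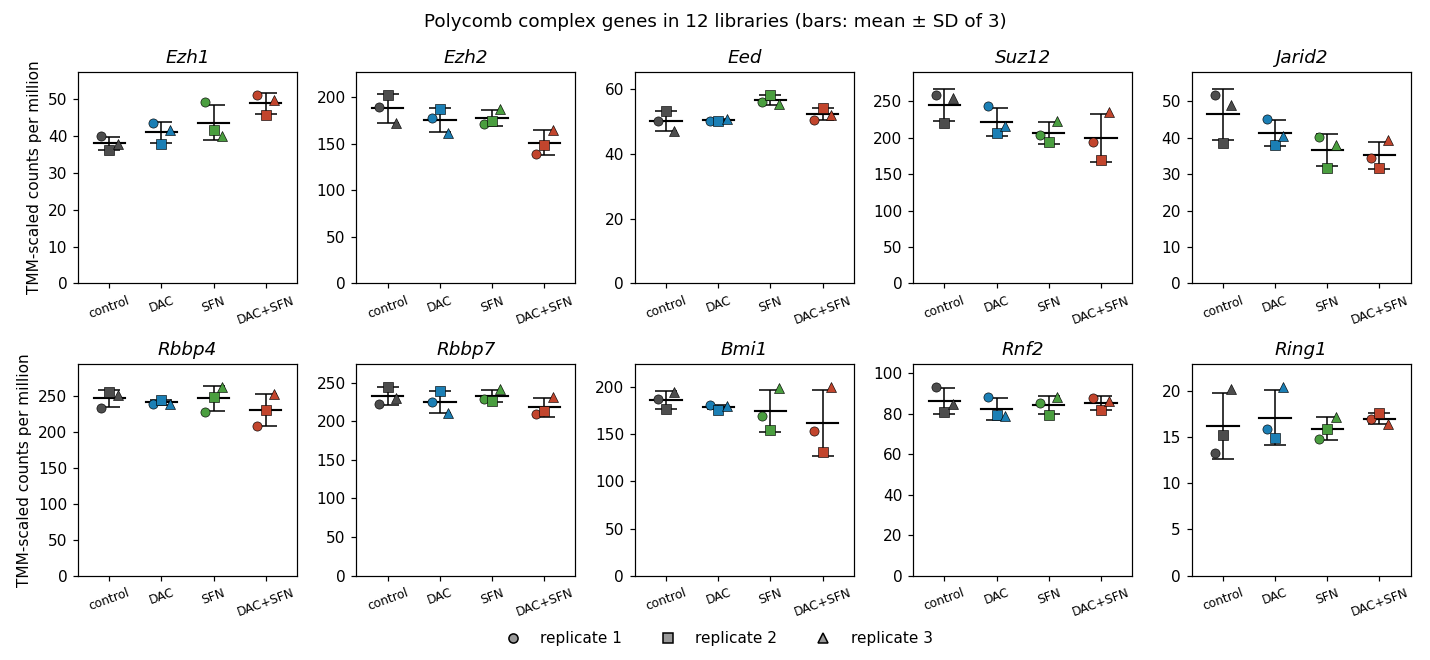
TMM-scaled CPM (vertical axis, from 0) of the 10 genes in the 12 libraries, by condition on the horizontal axis. Symbols mark the replicate number and bars the mean ± SD of 3 libraries, and the 3 DAC+SFN libraries of Ezh1 sit between 45.6 and 51.1 CPM, above every control library.

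Ezh1 (Entrez Gene 14055, mm10 chromosome 11, 101191115 to 101226463, minus strand) encodes the PRC2 methyltransferase that prevails in resting and differentiated cells. In replicates 1, 2 and 3, its level was 39.8, 36.2 and 37.6 CPM in control and 43.4, 37.8 and 41.5 CPM with DAC. It was 49.0, 41.6 and 40.0 CPM with SFN and 51.1, 45.6 and 49.5 CPM with DAC+SFN. All SFN and all DAC+SFN libraries were above the control libraries, and the DAC libraries overlapped with them. The log2 fold change with DAC+SFN was 0.36 (SE 0.07, adjusted p = 0.00100), which is 28.6% higher, and the 3 repeats gave 0.36, 0.33 and 0.40. With SFN it was 0.20 (SE 0.07, adjusted p = 0.0621) and with DAC 0.11 (SE 0.07, adjusted p = 0.623). The Ezh1 call in DAC+SFN held in 12 of 12 fits that left out a library and in 9 of 9 other fits.

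Ezh2 (Entrez Gene 14056, chromosome 6, 47530139 to 47595341, minus strand) encodes the methyltransferase that is typical of dividing cells. Its level was 189, 203 and 171 CPM in control and 178, 187 and 161 CPM with DAC. It was 171, 174 and 187 CPM with SFN and 139, 148 and 165 CPM with DAC+SFN. The DAC+SFN libraries lay below all control libraries and below all SFN libraries, whereas the single treatments overlapped with control. The log2 fold change with DAC+SFN was -0.32 (SE 0.08, adjusted p = 0.00676), which is a change of -19.6%. The size differed between repeats, with log2 differences of -0.44, -0.45 and -0.06 in replicates 1, 2 and 3. The single treatments had log2 fold changes of -0.10 with DAC (SE 0.08, adjusted p = 0.720) and -0.08 with SFN (SE 0.08, adjusted p = 0.535). Without all libraries of replicate 1 the Ezh2 call in DAC+SFN was lost (adjusted p = 0.138), and likewise without replicate 2 (adjusted p = 0.114).

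Suz12 (Entrez Gene 52615, chromosome 11, 79993106 to 80034123, plus strand) encodes the subunit on which PRC2 is assembled. Its level was 259, 220 and 255 CPM in control, 243, 206 and 216 CPM with DAC, and 204, 194 and 223 CPM with SFN. The combination libraries had 195, 170 and 235 CPM. Replicate 2 was lowest in each of the 4 conditions, and 1 SFN and 1 DAC+SFN library, both of replicate 3, lay above the lowest control. Within replicates, all 3 differences were negative in both SFN and DAC+SFN. The log2 fold change was -0.30 with DAC+SFN (SE 0.07, adjusted p = 0.00689), which is a change of -18.6%, and -0.24 with SFN (SE 0.07, adjusted p = 0.0399). With DAC it was -0.14 (SE 0.07, adjusted p = 0.558). The SFN call was held in only 5 of 12 fits with a library left out, and was lost without any 1 of the control or SFN libraries or DAC replicate 2, with adjusted p-values up to 0.186. Without the replicate block both calls were lost (adjusted p = 0.349 in SFN and 0.122 in the combination).

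Jarid2 (Entrez Gene 16468, chromosome 13, 44729474 to 44921643, plus strand) encodes a DNA-binding cofactor that helps to bring PRC2 to its targets. Its level was 51.9, 38.5 and 49.0 CPM in control, 45.3, 38.1 and 40.5 CPM with DAC, and 40.1, 31.6 and 37.9 CPM with SFN. The combination libraries had 34.5, 31.7 and 39.3 CPM. Here too replicate 2 of the control was low, so the groups overlapped by 1 library, and every repeat was lower than its own control. The log2 fold change was -0.34 with SFN (SE 0.08, adjusted p = 0.00795) and -0.40 with DAC+SFN (SE 0.08, adjusted p = 0.00152). The latter was the largest decrease among the members, at -24.0%. With DAC it was -0.17 (SE 0.08, unadjusted p = 0.0467, adjusted p = 0.487, edgeR). Without the block the adjusted p was 0.239 with SFN and 0.0655 with DAC+SFN, and without control replicate 1 the SFN value was 0.0575.

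The promoter windows of Ezh1, the member that was higher, and of Ezh2 and Suz12, lower in the combination, are shown because they differ in the letters bound by E2F factors, which drive genes of the dividing cell. The windows are those of RefSeq on GRCm38.p6, the assembly also called mm10, from 250 bases before to 50 bases after a transcription start, 5′ to 3′ on the strand of the gene. Capitals mark the E2F letters TTTCCCGC, TTTCGCGC, TTTGCCGC or TTTGGCGC and the antioxidant response element letters TGACNNNGC, bound by NRF2, the factor that SFN activates, on either strand. All 10 genes had a window, and Jarid2 had 2.
Ezh1, chr11:101226414-101226713, minus strand: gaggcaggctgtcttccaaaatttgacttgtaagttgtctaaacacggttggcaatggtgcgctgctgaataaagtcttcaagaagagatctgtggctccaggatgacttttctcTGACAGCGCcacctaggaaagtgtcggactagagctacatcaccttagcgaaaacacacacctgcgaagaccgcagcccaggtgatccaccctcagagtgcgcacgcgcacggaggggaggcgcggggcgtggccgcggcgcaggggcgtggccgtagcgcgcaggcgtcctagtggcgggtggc
Ezh2, chr6:47594981-47595280, minus strand: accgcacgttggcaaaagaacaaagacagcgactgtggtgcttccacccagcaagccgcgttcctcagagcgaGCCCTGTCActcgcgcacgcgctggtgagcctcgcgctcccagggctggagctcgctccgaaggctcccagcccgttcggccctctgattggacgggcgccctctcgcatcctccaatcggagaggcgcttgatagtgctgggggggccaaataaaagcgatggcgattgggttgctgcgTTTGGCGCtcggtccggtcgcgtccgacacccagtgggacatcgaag
Suz12, chr11:79992856-79993155, plus strand: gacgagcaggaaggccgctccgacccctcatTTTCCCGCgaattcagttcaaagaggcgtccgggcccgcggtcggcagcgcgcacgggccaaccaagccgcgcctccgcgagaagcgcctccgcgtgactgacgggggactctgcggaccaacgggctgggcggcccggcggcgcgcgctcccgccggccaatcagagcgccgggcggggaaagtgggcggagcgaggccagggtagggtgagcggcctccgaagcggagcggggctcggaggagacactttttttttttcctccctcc
The E2F letters were found in 2 of 10 members, in Ezh2 starting 3 bases after the start site and in Suz12 starting 219 bases before it, and in 2.26% of 32851 windows over all genes. The response element letters were in Ezh1, Ezh2 and Bmi1, 3 of 10, against 12.4% of all windows. The E-box CACGTG, which is the same on both strands, was in Rbbp4 and Bmi1 against 7.15% of windows, and its Bmi1 match shares bases with the response element letters. CCAAT was in 6 of 10 members against 37.4%. Neither window of Jarid2 held E2F or response element letters. The member windows held between 17 and 41 CpG dinucleotides with a median of 30, where the median of all windows was 7. Every E2F sequence searched holds a CpG, and the background counts windows rather than genes. The 2.26% is therefore no matched background for the members. A match of letters is a description of the window, and no binding was measured.

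**Figure D2:**
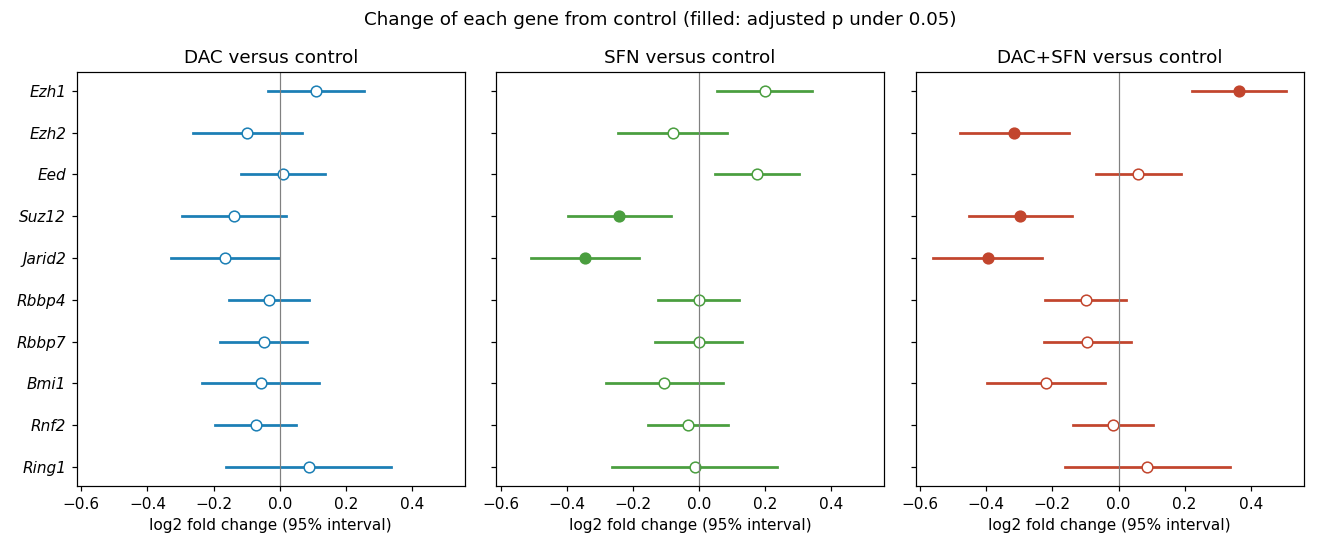
Log2 fold change of each of the 10 genes from control (horizontal axis) with its 95% interval, in DAC, SFN and DAC+SFN. Filled circles mark an adjusted p under 0.05, which are 0, 2 and 4 genes.

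Counted over the set, DAC changed 0 of 10 members in edgeR's test, against 0.180% of all genes tested. At an unadjusted p under 0.05 there was 1 member, Jarid2, against 10.1% of all genes, and DESeq2 also called 0. No member had DAC libraries clear of the control libraries, which 8.43% of all genes had. SFN changed 2 of 10, both lower, where 13.9% of all genes were called, 8.27% as higher and 5.65% as lower. Groups that did not overlap were seen for Ezh1 and Eed with SFN, against 20.8% of all genes. DAC+SFN changed 4 of 10, 1 higher and 3 lower, where 31.6% of all genes were called, 17.0% as higher and 14.7% as lower. The groups did not overlap for Ezh1 and Ezh2, against 29.4% of all genes. The members' shares in SFN and DAC+SFN were near those of the whole table, so the counts are not particular to them. The median log2 fold change of the members in DAC+SFN was -0.10, and that of all genes tested 0.01.

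The step from DAC to the combination was called for 1 member, against 16.1% of genes. Ezh1 was 19.2% higher in DAC+SFN than in DAC (log2 0.25, SE 0.07, adjusted p = 0.0189), and all 3 DAC+SFN libraries were above the DAC libraries. That call was lost without DAC replicate 1 or 2, or without DAC+SFN replicate 1 or 3. From SFN to the combination, 0 members were called by edgeR and 0 by DESeq2, against 1.61% of genes. Ezh2 (log2 -0.24, SE 0.08) and Ezh1 (0.17, SE 0.07) had an unadjusted p under 0.05, as had 17.8% of genes, with adjusted p-values of 0.126 and 0.204. By the labels the SFN dose also differed between these groups.

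Averaged over the presence of DAC, SFN changed 3 members, against 29.6% of genes. Ezh1 was higher (log2 0.23, adjusted p = 0.00242), and Suz12 (-0.20, adjusted p = 0.00973) and Jarid2 (-0.29, adjusted p = 0.00126) were lower. Ezh2 was at -0.15 with an adjusted p of 0.0536. It was called in 5 of 8 other fits and in 4 of 12 that left out a library. Averaged over the presence of SFN, DAC changed 0 members by edgeR and by DESeq2, against 5.22% of genes, and 2 members had an unadjusted p under 0.05, against 20.7%. These were Ezh2 (-0.17, adjusted p = 0.0928) and Ezh1 (0.14, adjusted p = 0.108). The interaction of the drugs was called for 0 members by edgeR and by DESeq2, as for 0% of all genes by either tool. No member had an unadjusted p under 0.05 for it, against 5.87% of all genes. For Ezh2 the interaction was -0.14 on the log2 scale with a 95% interval from -0.37 to 0.10, so no departure from the sum of the single effects was detectable with 3 repeats. A test of any difference among the 4 conditions called 4 members, Ezh1, Ezh2, Suz12 and Jarid2, against 25.2% of genes.

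The remaining PRC2 members are EED, which reads the methyl mark, and the histone chaperones RBBP4 and RBBP7. Eed (Entrez Gene 13626, chromosome 7, 89954654 to 89980983, minus strand) had 50.2, 53.2 and 46.9 CPM in control and 56.0, 58.3 and 55.4 CPM with SFN. The SFN libraries were all above control, at a log2 difference of 0.17 (SE 0.06) that missed the threshold (adjusted p = 0.0647). With DAC+SFN it had 50.4, 54.3 and 52.1 CPM, within the control range apart from replicate 2, and a log2 difference of 0.06 with a 95% interval from -0.07 to 0.19. Rbbp4 (Entrez Gene 19646, chromosome 4, 129307100 to 129335370, minus strand) lay between 209 and 263 CPM in all libraries. Rbbp7 (Entrez Gene 245688, chromosome X, 162760402 to 162779092, plus strand) lay between 209 and 245 CPM. In DAC+SFN the intervals ran from -0.22 to 0.02 for Rbbp4 and from -0.23 to 0.04 for Rbbp7. The Ezh2 estimate of -0.32 fell outside them. The Ezh2 interval, from -0.48 to -0.15, overlapped with both, and no difference between genes was tested.

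Among the PRC1 members, Bmi1 (Entrez Gene 12151, chromosome 2, 18677018 to 18686629, plus strand) had 188, 177 and 196 CPM in control and 154, 132 and 201 CPM with DAC+SFN. Replicates 1 and 2 were below all controls and replicate 3 was above all of them. The log2 fold change was -0.22 (SE 0.08, adjusted p = 0.0569). Bmi1 was called in 4 of 12 fits that left out a library and in 2 of 9 other fits. The latter were DESeq2 (adjusted p = 0.0386) and edgeR without a filter (adjusted p = 0.0124). With a library left out, adjusted p-values ran from 0.00122 without DAC+SFN replicate 3, at a log2 fold change of -0.35, to 0.284 without DAC+SFN replicate 2. Rnf2 (Entrez Gene 19821, chromosome 1, 151458004 to 151500955, minus strand) lay between 78.9 and 93.5 CPM, with a DAC+SFN difference of -0.02 and an interval from -0.14 to 0.10. Ring1 (Entrez Gene 19763, chromosome 17, 34020792 to 34024680, minus strand), the least counted member, lay between 13.2 and 20.5 CPM, and its interval from -0.16 to 0.34 was the widest.

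In DAC+SFN, replicate 3 stood closer to its control than the other repeats for several members. Its log2 differences were -0.06 for Ezh2, -0.12 for Suz12 and 0.04 for Bmi1, where replicates 1 and 2 gave -0.44 and -0.45, -0.41 and -0.37, and -0.29 and -0.42. For Ezh1 the 3 repeats gave like values. Without DAC+SFN replicate 3, 5 members were called in DAC+SFN compared to control, the fifth being Bmi1, and 36.2% of all genes. With replicate number 1 left out altogether only Ezh1 was called, with replicate 2 left out Ezh1 and Jarid2, and with replicate 3 left out 6 members. The share of all genes called moved alike, at 12.7%, 15.3% and 35.2% without replicates 1, 2 and 3. Without the block, Ezh1 (adjusted p = 0.0291) and Ezh2 (adjusted p = 0.0427) were the 2 called, and 10.3% of all genes. The replicate numbers themselves differed in 3 members, Bmi1, Jarid2 and Suz12, against 33.9% of all genes. Jarid2 had a mean over conditions of 42.9 CPM in replicate 1 and 41.7 CPM in replicate 3 and was lowest in replicate 2, a 1.23-fold range.

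**Figure D3:**
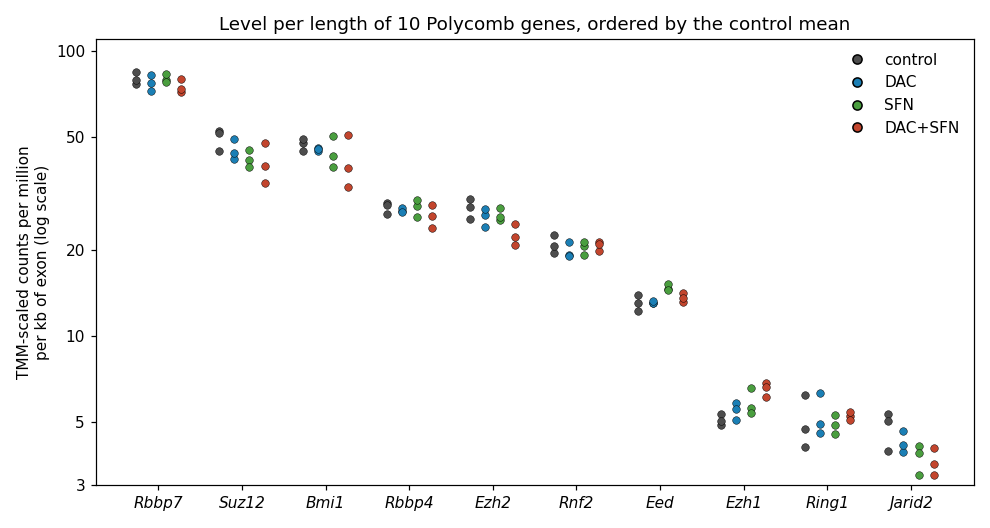
Level per length, in TMM-scaled CPM per kb of exon on a log axis, of the 10 genes in each library, ordered by the control mean from Rbbp7 to Jarid2. Colours mark the condition, and the gap between Eed and Ezh1 is clear of both genes' libraries in all 4 conditions.

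To compare genes with each other, CPM were divided by the kilobases of the union of a gene's exons in GENCODE. Per kb, Rbbp7 was highest in control at 79.9 ± 3.87, followed by Suz12 at 49.5 ± 4.38, Bmi1 at 47.0 ± 2.36, Rbbp4 at 28.2 ± 1.38 and Ezh2 at 28.1 ± 2.33. Below these came Rnf2 at 20.96 ± 1.55, Eed at 13.1 ± 0.820, Ezh1 at 5.09 ± 0.241, Ring1 at 5.01 ± 1.10 and Jarid2 at 4.78 ± 0.722 (SD, n = 3). Suz12 and Bmi1, Rbbp4 and Ezh2, and the 3 lowest genes had overlapping libraries, and the other neighbours in this order did not. In DAC+SFN, Ezh2 at 22.6 ± 1.98 overlapped with Rnf2 at 20.7 ± 0.792, which it did not in the other conditions. Jarid2, at 3.62 ± 0.392, was clear of Ring1 and Ezh1 there and in SFN. Exon unions hold all annotated isoforms, so these levels understate genes whose long isoforms are not used. The longest coding transcript has 2787 bases for Ezh2 and 4373 for Suz12, where the unions have 6678 and 4945. The order of the genes, their overlaps and the size of ratios between them therefore depend on the length used.

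The paralogue pairs were then set against each other within each library. The Ezh2 to Ezh1 ratio per length was 5.28, 6.23 and 5.08 in control replicates 1, 2 and 3 and 4.56, 5.51 and 4.34 with DAC. SFN libraries had ratios of 3.88, 4.66 and 5.22, and DAC+SFN libraries 3.03, 3.63 and 3.71. The combination lay below every control, DAC and SFN library, with a mean of 3.45 ± 0.373 against 5.53 ± 0.615 in control (exact permutation p = 0.1, two-sided, the smallest that 3 against 3 allows). Ezh1 made up 15.4 ± 1.39% of the summed Ezh1 and Ezh2 level per length in control and 22.6 ± 1.98% in DAC+SFN. The sum itself was 33.2 ± 2.26 in control and 29.1 ± 1.97 in DAC+SFN, with overlapping libraries (exact permutation p = 0.2). The Rbbp4 to Rbbp7 ratio was 0.353 ± 0.00864 in control and 0.352 ± 0.0171 in DAC+SFN, with overlapping libraries. The Rnf2 to Ring1 ratio was 4.34 ± 1.13 and 3.95 ± 0.268, again with overlap. Since Ezh1 and Ezh2 were also tested as single genes above, the ratio is no separate evidence.

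**Figure D4:**
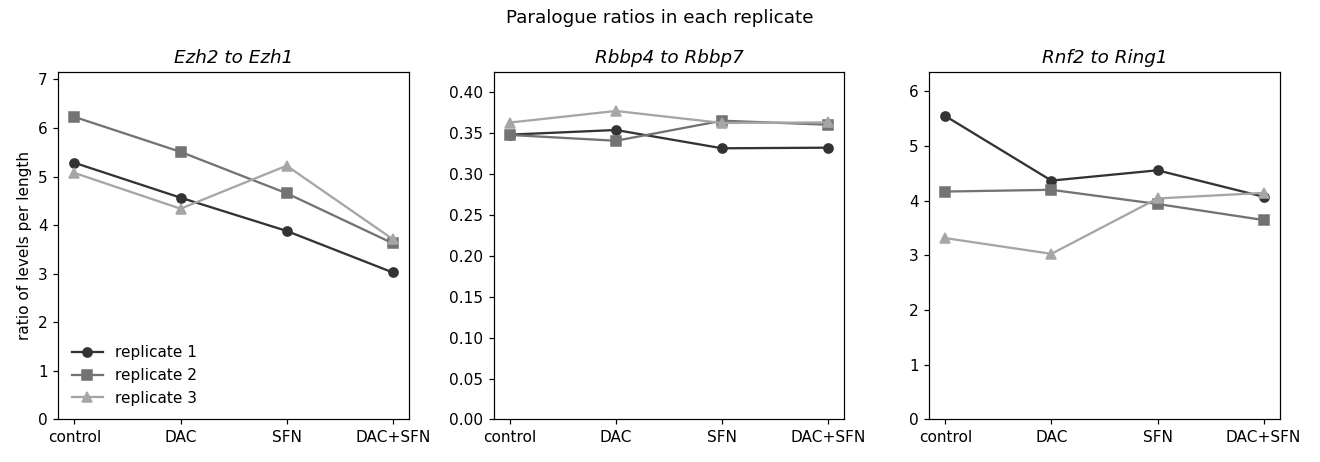
Ratio of levels per length (vertical axis, from 0) of 3 paralogue pairs by condition, with a line for each replicate number. The Ezh2 to Ezh1 ratio is between 3.03 and 3.71 in DAC+SFN and between 5.08 and 6.23 in control, whereas the other pairs overlap.

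Reads of some members cannot be set apart from other genes in every position. Of the 75-base windows in the longest coding transcript of Rbbp4, 31.4% are also found in transcripts of other genes, mostly Gm26722 on the opposite strand. The shares were 11.2% for Bmi1, with Gm5946, 9.54% for Rbbp7, 9.38% for Eed, 2.47% for Suz12 and 0.700% for Ezh2, and 0 windows were shared for Ezh1, Jarid2, Rnf2 and Ring1. The strand setting of the counting was not given in the sources used here.

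Genes that are typical of S phase and mitosis moved in the same direction as Ezh2. Of 26 such genes, all of which passed the filter, 23 were lower and 1 higher in DAC+SFN, against the 14.7% of all genes that were lower, with a median log2 fold change of -0.31 where all genes had 0.01. Mcm7, a subunit of the replicative helicase, fell from 238 ± 23.7 to 170 ± 11.2 CPM (log2 -0.49, SE 0.07, adjusted p = 0.000132). E2f8, an E2F factor, was at -0.49, Ccna2, the S phase cyclin, at -0.47 and Pcna, the replication clamp, at -0.43 (adjusted p up to 0.000410). The 1 that was higher was the cyclin gene Ccne1 (0.18, adjusted p = 0.0479), which DESeq2 did not call. The list's median within replicates 1, 2 and 3 was -0.38, -0.45 and -0.19, so replicate 3 had the smallest change here as it had for Ezh2, Suz12 and Bmi1. Of this list, DAC changed 0 by edgeR and by DESeq2 (10 with an unadjusted p under 0.05, median -0.14) and SFN changed 3, 1 as higher and 2 as lower, which is 11.5% against the 13.9% of all genes (median -0.10). Within replicates 1, 2 and 3 the SFN medians were -0.04, -0.26 and 0.03. The number lower in DAC+SFN was 13 without the block, 9 without replicate 1 and 15 without replicate 2. These fits called 10.3%, 12.7% and 15.3% of all genes, in either direction. Their part in the lower Ezh2 and Suz12 was not tested. Fewer cells in cycle cannot be told apart from less RNA per cell in these bulk libraries. By flow cytometry, the study reported normal cell cycle distributions in treated and control cells and no arrest.

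**Figure D5:**
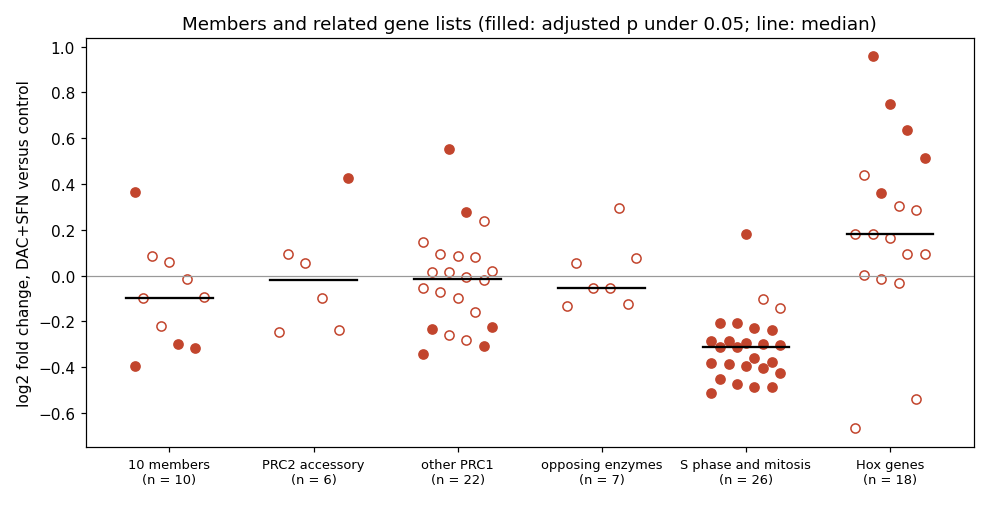
Log2 fold change in DAC+SFN compared to control (vertical axis) of the 10 members and of 5 related lists, 1 circle a gene and a line at the median. Filled circles are called, and the S phase and mitosis list has a median of -0.31 with 24 of 26 genes called.

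Most partners of the core complexes were not called in DAC+SFN, where 31.6% of all genes were called. The lists are small and their shares were not tested against this one, so the counts are not particular to them. Of 6 PRC2 accessory genes tested of 7, 1 was called in DAC+SFN (16.7%). This was Phf1, a reader of histone H3 that extends PRC2's stay on chromatin. It had 12.8 ± 2.54 CPM in control and 17.0 ± 0.635 CPM in DAC+SFN (log2 0.43, SE 0.12, adjusted p = 0.0134). Its level was already 17.1 ± 2.76 CPM with DAC and 15.1 ± 1.49 CPM with SFN, where 0 accessory genes were called. Of 22 other PRC1 genes tested of 23, 2 were higher and 4 lower (27.3% called), with a list median of -0.01. Scmh1, a Polycomb-associated protein, rose from 30.6 ± 2.37 to 45.0 ± 7.60 CPM (log2 0.55, SE 0.07, adjusted p = 7.92e-05), and was also called with SFN (0.49, adjusted p = 0.000451). The polyhomeotic genes, whose products link PRC1 complexes into chains, parted, with Phc1 at -0.34 (adjusted p = 0.00497) and Phc2 at 0.28 (adjusted p = 0.00916). Rybp, a subunit of the PRC1 forms without CBX proteins, was at -0.23 (adjusted p = 0.0200). Without the block, 0 accessory genes were called by edgeR (DESeq2 with the block called 1), and 1 of the other PRC1 genes, against 10.3% of all genes. In SFN, 3 of the other PRC1 genes were called, which is 13.6% against the 13.9% of all genes.

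Enzymes that remove the Polycomb marks, the H3K27 demethylases and H2A deubiquitinases with their partners, had 0 of 7 tested genes called in DAC+SFN by edgeR and by DESeq2, with 1, Asxl1, at an unadjusted p under 0.05 (0.0354), where 31.6% of all genes were called. The 4 with the highest counts were Asxl1, Asxl2, Bap1 and Usp16, at log2 fold changes of -0.13, 0.05, 0.08 and -0.05. The H3K27 demethylase genes, added after their values were seen, were Kdm6a at -0.12 (adjusted p = 0.238) and Kdm6b at 0.29 (SE 0.15, adjusted p = 0.145). Kdm6b had the largest difference of the list, with 51.8 ± 7.81 CPM in control and 63.3 ± 10.6 CPM in DAC+SFN. Of the 39 Hox genes, the classical targets of Polycomb silencing, 18 passed the filter and 5 were called in DAC+SFN, all as higher. That is 27.8% of those tested, near the 31.6% of all genes called, of which 17.0% were higher. Hoxa11 rose from 6.77 ± 1.22 to 10.6 ± 2.01 CPM (log2 0.64, SE 0.13, adjusted p = 0.00221). Hoxa6 (0.96, adjusted p = 0.0270), Hoxd3 (0.51, adjusted p = 0.0447) and Hoxb9 (0.36, adjusted p = 0.0335) followed, and Hoxa6 had only 13 to 41 counts in a library. It reached 1 CPM in every SFN and DAC+SFN library, but only in replicate 3 of control and in no DAC library. Hoxa6 thus passed the filter through the groups where it was high. With no filter, 5 of 29 Hox genes tested were called, all as higher, against 21.9% of all genes. The median over the 18 genes was 0.28 in DAC with 0 called by edgeR and by DESeq2 (3 with an unadjusted p under 0.05), 0.24 in SFN with 2 called and 0.18 in DAC+SFN, so it was not highest in the combination. These 3 comparisons share the control libraries. DESeq2 called 2 of the Hox genes and edgeR without the block 1, and with replicate 1 or replicate 2 left out 1 was called. The shares of all genes in these 4 fits were 29.5%, 10.3%, 12.7% and 15.3%. The 9 genes of the Hoxc cluster all stayed under the filter, the highest count being 7 in a single library. The Polycomb target genes Cdkn2a and Cdkn2b, which encode inhibitors of the cell cycle, were at 0 counts in all 12 libraries, which allows up to 3 counts in each. Whether silencing is behind these 0 counts was not tested, and RNA counts cannot tell it from a missing gene.

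The genes whose pattern over the 12 libraries was most like that of Ezh2, after the mean of each replicate number was removed, were Nap1l1, H3f3a, Cdc6 and Srsf10, with Pearson correlations of log2 CPM of 0.98 each. For Ezh1 they were Tctn1 and Tgfbr2 (0.97 each), Usp38 (0.96) and St5 (0.95). These are the highest of all genes tested over 12 points that share the 4 conditions, so they are descriptions. In DAC+SFN the Ezh2-like genes had log2 fold changes between -0.38 and -0.22, and the Ezh1-like genes between 0.19 and 0.62.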

How the data were processed

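RNA of 12 B16F10 samples, 3 repeats of 4 conditions, was sequenced on a NextSeq 500 with 75-base single reads from TruSeq stranded mRNA libraries. The authors deposited whole-number read counts per gene symbol. Per the labels' processing notes and the study's methods, reads were checked with FastQC 0.11.7, trimmed with Trimmomatic 0.38, aligned to mm10 with TopHat 2.1.1 and counted with HTSeq, keeping unique alignments. The annotation and strand setting of the counting were not given in the sources used here. The counts carry no normalization.

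Genes that reached 1 CPM in 3 or more of the 12 libraries were kept, scaled by TMM and tested with glmQLFTest (legacy quasi-likelihood fit) in edgeR 4.0.16 and R 4.3.3, with the replicate number as a block and all samples in 1 model. Tests were two-sided, p-values were adjusted by Benjamini-Hochberg over all genes, and each SE belongs to a log2 fold change. The study also required a fold change above 2, which is given as a second rule. The pairing by replicate number was taken from the labels and checked: same-numbered samples correlated by 0.544 on average over 18 pairs (lowest 0.270). No 2 libraries of a group were copies. The members and gene lists were chosen with earlier results of these data known. Named genes were all members, up to 4 genes of each list (smallest adjusted p in DAC+SFN, or highest CPM where none was called) and the 4 genes most alike to Ezh1 and Ezh2. Intervals are 95%. Positions and lengths came from GENCODE release M21 on mm10 and promoters from RefSeq. Alternatives used DESeq2 1.42.0, other scalings, filters and fits, and left out libraries. Scripts were tested on simulated data. Figures used matplotlib, with Python. SFN doses in the labels differ between single and combination treatment.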

Additional observations from a re-analysis of the deposited data

How the results depend on the processing

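Over the 10 members and the 3 comparisons with control, no alternative scaling, filter, fit or test turned the direction of a difference, and over all alternatives 663 values kept direction and side of the threshold, 12 passed it, 21 lost it and 24 turned. The turns came only with libraries left out and from differences within 0.10 of 0 on the log2 scale. The number of members called held in DAC compared to control and in the interaction, at 0 under every alternative. Scaling by DESeq2's size factors or by library totals moved the median of all genes by at most 0.0144 on the log2 scale. By library totals alone, the replicate numbers differed in 7 members in place of 3. Those that turned ran, in DAC compared to control, from -0.044 to 0.057 for Eed, from -0.084 to 0.017 for Rbbp4, from -0.092 to 0.018 for Rbbp7, from -0.13 to 0.034 for Bmi1 and from -0.0060 to 0.20 for Ring1. In SFN they ran from -0.045 to 0.019 for Rbbp4, from -0.045 to 0.047 for Rbbp7, from -0.085 to 0.014 for Rnf2 and from -0.11 to 0.096 for Ring1, and in DAC+SFN from -0.049 to 0.020 for Rnf2 and from -0.042 to 0.27 for Ring1.

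Without the replicate block, 0 members were called in SFN and 2 in DAC+SFN compared to control, 0 in DAC+SFN compared to DAC, 1 for SFN averaged over DAC and 0 for any difference among the conditions, while 0.198% of all genes were called in SFN and 10.3% in DAC+SFN compared to control. Of all genes, 0.172% were called without the block in DAC+SFN compared to DAC, 9.04% for SFN averaged over DAC and 2.06% for any difference. The block changed no other count of members between conditions. In DAC+SFN compared to control, 5 members were called without a filter and by DESeq2, the fifth being Bmi1. These fits called 21.9% and 29.5% of all genes. Without a filter, 3 members were called in DAC+SFN compared to DAC, 1 compared to SFN, 1 for DAC averaged over SFN and 5 for SFN averaged over DAC. The shares of all genes called were 12%, 2.79%, 5.39% and 20.7%. With only the groups compared in the fit, 0 members were called in DAC+SFN compared to DAC and 1 compared to SFN, against 6.51% and 11.1% of all genes. With a fold change above 2 added, 0 members were called in SFN and in DAC+SFN compared to control, in DAC+SFN compared to DAC and for SFN averaged over DAC.

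With libraries or whole replicate numbers left out, the number of members called ran from 0 to 4 in SFN and from 1 to 6 in DAC+SFN compared to control, where the share of all genes called ran from 3.72% to 18.2% and from 12.7% to 36.2%. The number of members ran from 0 to 5 in DAC+SFN compared to DAC and from 0 to 1 compared to SFN. The shares of all genes ran from 2.12% to 20.9% and from 0% to 6.06%. For DAC averaged over SFN the ranges were 0 to 3 members and 0.112% to 11.8% of genes. For SFN averaged over DAC they were 1 to 5 members and 13.4% to 35.7% of genes. For any difference among the conditions they were 0 to 5 members and 6.27% to 29.7% of genes. For the replicate numbers they were 1 to 5 members and 25.1% to 35.1% of genes.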
